A study of Mus musculus with 6 samples.

Results

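The 10 genes described here encode inhibitory receptors of T cells and ligands of such receptors, and were taken from the 24589 genes of the table by their symbols: Pdcd1, Lag3, Havcr2, Tigit, Ctla4, Cd160, Btla, Entpd1, Cd200 and Cd274. All 10 were found in the table, and 9 of them reached the level needed for a test. The cells were primary CD8+ T cells of wild-type C57BL/6 mice, isolated from spleen and peripheral lymph nodes and activated with antibodies to CD3 and CD28. They were then kept for 24 h with either DMSO, the solvent, or 20 µM trans-vaccenic acid (TVA), a fatty acid of ruminant milk and meat, and RNA was sequenced from 3 libraries of each group. The activation was common to both groups, and no library came from resting cells or from cells of a tumour. The study used adult, age-matched mice of both sexes. The sources used here do not give the number of mice behind these libraries or say whether the libraries of a group came from separate mice or cultures, so p-values measure only the spread between these samples, which may be technical.

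A T cell that has met antigen places inhibitory receptors on its surface, where they restrain signalling from the antigen receptor and its co-stimulatory partners. PD-1 (Pdcd1), CTLA-4 (Ctla4), BTLA (Btla) and TIGIT (Tigit) act through phosphatases or by competing with activating receptors for shared ligands, whereas PD-L1 (Cd274) and CD200 (Cd200) are ligands that engage inhibitory receptors on other cells. Several of these receptors appear within hours of activation and are kept at high level in chronically stimulated, exhausted T cells, so that their transcripts mark recent activation as well as exhaustion.

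Levels are given as TPM, a unit that divides reads by transcript length and scales every library to the same total. Read depth cannot be recovered from it, and no counting interval is given. Fitted changes are differences, TVA minus DMSO, of log2(TPM + 1), with limma p-values adjusted by the Benjamini-Hochberg method over the 10866 genes with at least 1 TPM in at least 3 libraries. Correlations between libraries ranged from 0.989 to 0.999, and DMSO replicate 2 stood apart from its own group: over the tested genes its r was 0.9957, 0.9964 and 0.9964 with the TVA libraries but 0.9929 and 0.9945 with the other DMSO libraries. It had the highest DMSO value for 6 of the 10 genes, a middle value for 3 and the lowest for Havcr2. For the 10 genes, the count that passed is given with and without it. The same holds for the lists of ligands, other inhibitory receptors, signalling proteins and transcription factors.

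The promoters of the 4 genes that fell with TVA and that have an entry in the RefSeq promoter table are printed first, with those of Pdcd1 and Tigit as a contrast, because the former were lower and the latter did not pass the test in the same libraries. Each covers 250 bases before to 50 after a start site in GRCm38.p6. Capitals mark matches, on either strand, to the cyclic AMP response element TGACGTCA, to its 5-base part TGACG, which lies within it, or to the AP-1 site TGANTCA. The coordinates are chr16:45409004-45409303, minus strand for Cd200, chr11:46454681-46454980, plus strand for Havcr2, chr1:60908775-60909074, plus strand for Ctla4, chr16:45224087-45224386, plus strand for Btla, chr1:94052504-94052803, minus strand for Pdcd1 and chr16:43664135-43664434, minus strand for Tigit.
Cd200: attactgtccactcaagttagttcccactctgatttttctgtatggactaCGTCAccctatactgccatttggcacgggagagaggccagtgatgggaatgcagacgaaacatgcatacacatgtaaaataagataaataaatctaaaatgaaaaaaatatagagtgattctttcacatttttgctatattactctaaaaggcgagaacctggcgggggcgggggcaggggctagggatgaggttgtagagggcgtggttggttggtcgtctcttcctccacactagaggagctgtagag
Havcr2: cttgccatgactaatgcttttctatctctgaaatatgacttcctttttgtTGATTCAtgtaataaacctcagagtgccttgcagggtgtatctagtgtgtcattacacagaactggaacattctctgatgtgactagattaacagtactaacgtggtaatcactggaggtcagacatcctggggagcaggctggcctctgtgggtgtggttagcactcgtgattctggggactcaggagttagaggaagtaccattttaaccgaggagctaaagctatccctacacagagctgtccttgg
Ctla4: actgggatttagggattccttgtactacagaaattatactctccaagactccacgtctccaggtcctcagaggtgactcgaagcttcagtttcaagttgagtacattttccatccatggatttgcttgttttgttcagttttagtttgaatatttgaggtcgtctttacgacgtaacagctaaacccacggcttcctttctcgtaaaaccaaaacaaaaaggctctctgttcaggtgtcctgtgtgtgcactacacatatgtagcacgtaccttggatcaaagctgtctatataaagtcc
Btla: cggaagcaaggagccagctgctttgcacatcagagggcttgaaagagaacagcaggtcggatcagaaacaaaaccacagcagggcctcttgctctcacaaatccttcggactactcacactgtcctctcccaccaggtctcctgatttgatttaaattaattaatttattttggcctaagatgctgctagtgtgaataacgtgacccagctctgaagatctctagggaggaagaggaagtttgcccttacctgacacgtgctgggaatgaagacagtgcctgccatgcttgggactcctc
Pdcd1: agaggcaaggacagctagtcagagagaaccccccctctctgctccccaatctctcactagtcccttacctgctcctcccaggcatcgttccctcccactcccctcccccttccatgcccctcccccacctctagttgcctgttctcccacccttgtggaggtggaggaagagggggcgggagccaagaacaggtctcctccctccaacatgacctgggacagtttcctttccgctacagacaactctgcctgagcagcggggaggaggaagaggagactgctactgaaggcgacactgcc
Tigit: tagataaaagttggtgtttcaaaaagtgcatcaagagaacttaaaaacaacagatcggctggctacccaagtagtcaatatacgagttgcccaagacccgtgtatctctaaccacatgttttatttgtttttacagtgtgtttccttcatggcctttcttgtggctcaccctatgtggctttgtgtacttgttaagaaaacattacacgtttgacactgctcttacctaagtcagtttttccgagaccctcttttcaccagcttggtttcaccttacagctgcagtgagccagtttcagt

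The 8-base element occurs in 1.79% of the 32851 promoters of the table and in none of these windows. The shorter TGACG, found in 20.8% of promoters, occurred in Cd200, on the reverse strand at positions -200 to -196 from the start site. TGANTCA, found in 7.81%, occurred in Havcr2 at -200 to -194. The NFAT core GGAAA, left in lower case because 61.3% of promoters hold it, occurred once in Ctla4 at -144 to -140, at -28 to -24 and -23 to -19 in Pdcd1, and at -110 to -106 and -13 to -9 in Tigit, and had no match in Havcr2, Cd200 or Btla. These matches describe letters in a window and were not tested for use.

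Transcripts of 5 of the 9 tested genes were lower with TVA and none was higher at an adjusted p below 0.05 (limma, Benjamini-Hochberg). Of all 10866 genes tested 8.51% passed, 3.23% as lower and 5.28% as higher. Higher genes were 62.1% of those that passed, but 35.4% with median-of-ratios scaling, 46.1% with quantile normalization and 51.8% with a correction for GC content, and the same 5 of the 10 genes passed as lower under each. The genes that fell were Havcr2, Cd200, Lag3, Ctla4 and Btla, while Pdcd1, Tigit, Cd274 and Cd160 did not pass and Entpd1 was too low to test. The TVA libraries lay below every DMSO library for the same 5 genes, which was so for 11.2% of the tested genes, and for none of the tested 9 did they lie above, which was so for 27.3%. The number of the 9 that passed was 2 without TVA replicate 1, 2 without replicate 2, 2 without replicate 3, 3 without DMSO replicate 3, 5 without DMSO replicate 1 and 6 without DMSO replicate 2, when Pdcd1 passed as higher. The number passing over all genes, 925 as reported, was 125, 102, 113, 294, 945 and 2242 in the same order. The median change was -0.28 over the 9 genes and 0.04 over all genes tested. Because RNA of the whole culture was measured, fewer cells of a type and less RNA per cell cannot be told apart.

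**Figure D1:**
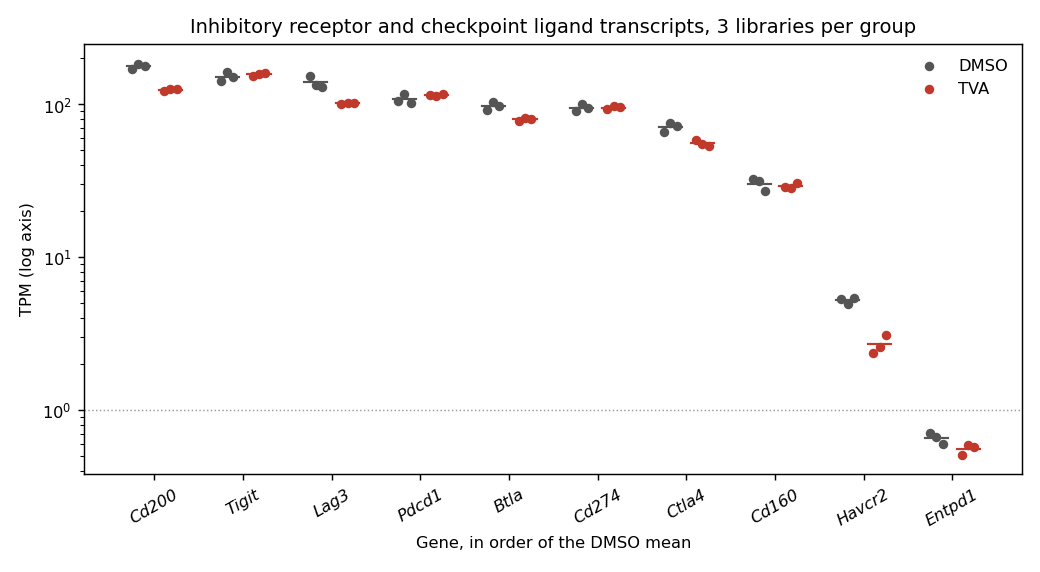
TPM on a log axis for each of the 10 genes in the 3 DMSO libraries (grey) and 3 TVA libraries (red), with a bar at each group mean and a dotted line at 1 TPM. The red points lie below all grey points for Cd200, Lag3, Btla, Ctla4, Havcr2 and Entpd1, and Entpd1 lies under 1 TPM in all 6 libraries.

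Among the ligands, Cd200 (chr16:45382111-45409060, minus strand) encodes a membrane glycoprotein that engages the inhibitory receptor CD200R on myeloid cells and some lymphocytes. Its level was 171.09, 185.3 and 177.7 TPM in the DMSO libraries and 122.08, 126.67 and 125.99 TPM in the TVA libraries. The groups were far apart, and the lowest DMSO library was above the highest TVA library. The mean level was 178.0 ± 7.11 TPM under DMSO and 124.9 ± 2.48 TPM under TVA (SD, n = 3), or 70.2% of the DMSO level. The fitted change was -0.51 (SE 0.0412, 95% interval -0.603 to -0.411), with an adjusted p of 0.00135 (limma), and it ranked at place 211 among the tested genes counted from the largest fall. The call was kept when any 1 library was left out, with adjusted p from 3.57e-04 to 0.0193.

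Cd274 (chr19:29362107-29388095, plus strand) encodes PD-L1, the ligand of PD-1. It was at 91.22, 100.64 and 94.25 TPM under DMSO and 93.32, 97.03 and 95.74 TPM under TVA. The libraries of both groups were interleaved. The change was 0.00 with a 95% interval of -0.104 to 0.106 (adjusted p = 0.99, limma), and its sign turned under several other settings, the median-of-ratios scaling among them.

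Of the receptors, Havcr2 (chr11:46454931-46481255, plus strand), which encodes TIM-3, a receptor for galectin-9 and phosphatidylserine that is used as a marker of terminal exhaustion, had the largest fitted fall of the 9. It was low in these cells, at 5.35, 4.95 and 5.41 TPM under DMSO and 2.37, 2.59 and 3.1 TPM under TVA. No TVA library came near the DMSO range, although the TVA libraries spread more than the DMSO libraries. The mean fell from 5.24 ± 0.25 to 2.69 ± 0.374 TPM (SD, n = 3), or 51.3% of the DMSO level. The fitted change was -0.76 (SE 0.0845, 95% interval -0.959 to -0.566, adjusted p = 0.00456, limma), which the added constant of 1 makes smaller for a gene of this level. The call was kept when any 1 library was left out (adjusted p 0.00222 to 0.0361).

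Lag3 (chr6:124904359-124912434, minus strand) encodes LAG-3, a receptor related to CD4 that binds MHC class II and fibrinogen-like protein 1. Its level was 153.32, 134.32 and 131.06 TPM under DMSO, the first library standing above the other two. With TVA it was 100.68, 102.54 and 101.65 TPM, a narrower range that lay wholly below the DMSO libraries. The mean went from 139.6 ± 12.0 to 101.6 ± 0.93 TPM (SD, n = 3), and the fitted change was -0.45 (SE 0.0597, 95% interval -0.589 to -0.312, adjusted p = 0.00893, limma). The study names Lag3 in its account of TVA, and reports less PD-1, LAG-3 and TOX protein in tumour CD8+ T cells of mice fed TVA. Lag3, Pdcd1 and Tox were therefore not chosen independently of such results. The Lag3 call was lost when a TVA library was left out. Its adjusted p (limma) was 0.0573 without replicate 1, 0.0543 without replicate 2 and 0.0517 without replicate 3, while the change stayed between -0.46 and -0.44.

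Ctla4 (chr1:60909025-60915832, plus strand) encodes CTLA-4, which competes with CD28 for CD80 and CD86. It was at 66.33, 76.05 and 72.3 TPM under DMSO and at 58.79, 54.9 and 53.32 TPM under TVA. The groups did not overlap, with TVA replicate 1 nearest to the DMSO range. The mean was 71.6 ± 4.9 and 55.7 ± 2.82 TPM (SD, n = 3), and the fitted change was -0.36 (SE 0.0603, 95% interval -0.496 to -0.215, adjusted p = 0.0181, limma). The adjusted p was 0.06 without DMSO replicate 3, and 0.0573, 0.0996 and 0.0983 without TVA replicates 1, 2 and 3, while the change stayed between -0.39 and -0.33.

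Btla (chr16:45223705-45252895, plus strand) encodes a receptor for HVEM, the product of Tnfrsf14, and carries tyrosine motifs that recruit phosphatases. It was at 92.12, 103.53 and 97.13 TPM under DMSO and 77.69, 81.95 and 80.29 TPM under TVA. Every TVA library was below every DMSO library, by a smaller margin than for Cd200. The mean was 97.6 ± 5.72 and 79.98 ± 2.15 TPM (SD, n = 3), and the fitted change was -0.28 (SE 0.05, 95% interval -0.399 to -0.167, adjusted p = 0.0208, limma). The adjusted p was 0.0594 without DMSO replicate 3, and 0.0913, 0.0923 and 0.101 without TVA replicates 1, 2 and 3, while the change stayed between -0.30 and -0.26. Without DMSO replicate 2, the library that stood apart, all 5 genes still passed as lower.

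Pdcd1 (chr1:94038305-94052553, minus strand), which encodes PD-1, the receptor that recruits SHP-2 when bound by PD-L1 or PD-L2, did not pass. Its level was 105.48, 117.61 and 102.08 TPM under DMSO and 115.11, 114.0 and 116.52 TPM under TVA. The TVA libraries were above DMSO replicates 1 and 3 and below DMSO replicate 2. The fitted change was 0.09 (95% interval -0.037 to 0.217, adjusted p = 0.29, limma), and without DMSO replicate 2 it was 0.15 with an adjusted p of 0.0332, a call in the upward direction.

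Tigit (chr16:43626137-43665125, minus strand) encodes a receptor that competes with the activating receptor CD226 for CD155. It stood at 142.51, 162.13 and 150.62 TPM under DMSO and 154.39, 158.52 and 159.47 TPM under TVA, within the range of the DMSO libraries. The fitted change was 0.06 (95% interval -0.063 to 0.173, adjusted p = 0.48, limma). The interval excludes a fall of the size fitted for Btla.

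Cd160 (chr3:96798763-96829351, minus strand) encodes a glycolipid-anchored receptor that shares HVEM with BTLA. Its level was 32.36, 31.52 and 27.04 TPM under DMSO and 28.66, 28.33 and 30.44 TPM under TVA, with overlapping groups and a change of -0.05 (95% interval -0.215 to 0.112, adjusted p = 0.64, limma). Entpd1 (chr19:40612366-40741602, plus strand) encodes CD39, an ectoenzyme that begins the breakdown of extracellular ATP to adenosine and a common marker of exhausted CD8+ T cells. It was at 0.71, 0.67 and 0.6 TPM under DMSO and 0.51, 0.59 and 0.57 TPM under TVA. These values did not overlap but lay under the 1 TPM needed for the test, and a test over every gene with a value above 0 gave an adjusted p of 0.233 (limma).

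**Figure D2:**
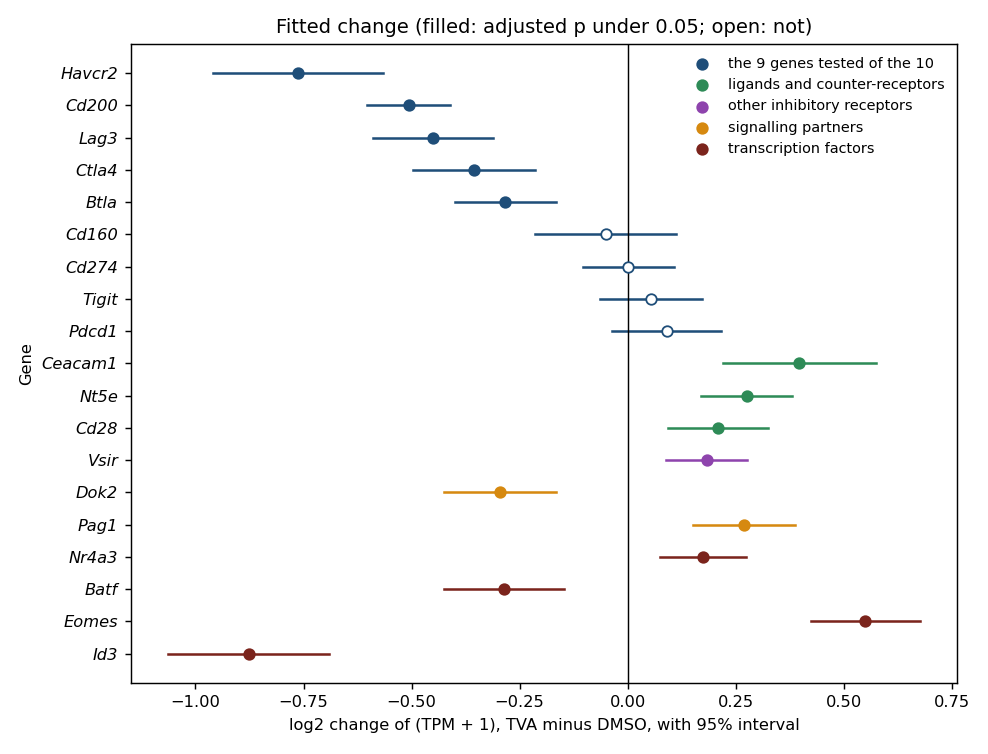
Fitted change of log2(TPM + 1), TVA minus DMSO, with its 95% interval, for the 9 tested genes and for the genes of 4 lists that passed the test, where filled points have an adjusted p below 0.05. Points left of the line at 0 were lower with TVA. The intervals of Havcr2, Cd200, Lag3, Ctla4 and Btla lie wholly below 0, and those of Cd160, Cd274, Tigit and Pdcd1 include 0.

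The order of the levels, which are per transcript length, differed between the groups. With DMSO, Cd200 was the most abundant of the 10 genes, followed by Tigit and Lag3, then Pdcd1, Btla and Cd274, then Ctla4, Cd160, Havcr2 and Entpd1. The ranges of Tigit and Lag3, of Pdcd1 and Btla, and of Btla and Cd274 overlapped. With TVA the order was Tigit, Cd200, Pdcd1, Lag3, Cd274, Btla, Ctla4, Cd160, Havcr2 and Entpd1, and no neighbouring ranges overlapped. The summed level of all 10 genes was 860.5, 916.7 and 858.2 TPM under DMSO and 753.6, 767.1 and 767.1 TPM under TVA, or 86.8% of the DMSO mean. The 5 genes that fell, taken for their fall, went from 492.0 ± 10.8 to 364.9 ± 3.55 TPM (SD, n = 3), while the other 5 were at 386.5 ± 22.6 and 397.7 ± 5.41 TPM. As a share of the summed level, Cd200 was 20.3% with DMSO and 16.4% with TVA, Lag3 was 15.9% and 13.3%, Tigit was 17.3% and 20.6%, and Pdcd1 was 12.3% and 15.1%. Tigit and Pdcd1 themselves did not pass, and a share also rises when other genes in the sum fall.

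A ratio of a pair of transcripts within a library does not depend on how that library was scaled, and 4 such ratios were compared. The Ctla4 to Cd28 ratio, an inhibitory and an activating receptor for the same ligands, was 0.585, 0.602 and 0.581 with DMSO and 0.432, 0.385 and 0.374 with TVA, a log2 difference of -0.57. All TVA libraries were lower. The Lag3 to Pdcd1 ratio was 1.45, 1.14 and 1.28 with DMSO and 0.875, 0.899 and 0.872 with TVA, so that Lag3 was the more abundant transcript in each DMSO library and Pdcd1 in each TVA library. The Btla to Tnfrsf14 ratio, of a receptor and its partner, was 3.91, 4.73 and 4.55 with DMSO and 3.72, 3.47 and 3.23 with TVA, again without overlap though TVA replicate 1 came close to DMSO replicate 1. The Tigit to Cd226 ratio was 1.75, 1.79 and 1.72 with DMSO and 1.93, 1.89 and 1.92 with TVA, the only one of the 4 that was higher with TVA. The log2 differences were -0.54 for Lag3 to Pdcd1, -0.34 for Btla to Tnfrsf14 and 0.12 for Tigit to Cd226. For each ratio the exact two-sided permutation p was 0.1, which is the smallest that 3 libraries against 3 allow, and it stayed at 0.1 after adjustment over the 4 ratios.

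**Figure D3:**
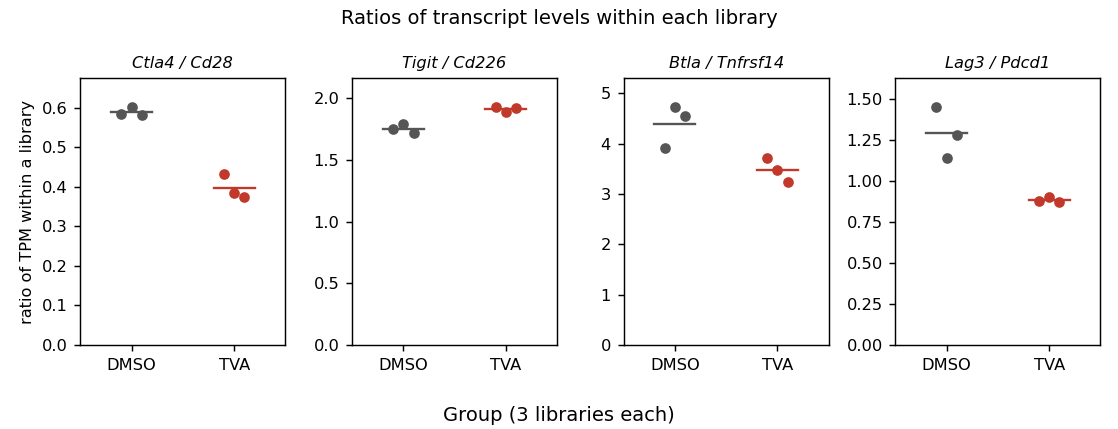
Ratio of TPM within each library for 4 gene pairs, with axes from 0, DMSO in grey, TVA in red and a bar at each group mean (3 libraries each). The groups are separate in all 4 panels, with TVA lower for Ctla4 to Cd28, Btla to Tnfrsf14 and Lag3 to Pdcd1 and higher for Tigit to Cd226.

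Of 19 listed ligands and counter-receptors of these genes 16 were tested. Among the 16, 3 passed as higher, against 5.28% of all genes tested, and 0 as lower, against 3.23% (6 had an unadjusted p below 0.05, limma), with a median change of 0.10 (0.04 over all genes tested). The count of lower genes is near the all-gene share. The number passing in either direction was 7 without DMSO replicate 2 and 0 without any 1 of the TVA libraries. Nt5e, which encodes CD73, the enzyme that acts after CD39 in making adenosine, was at 14.76, 14.91 and 15.1 TPM under DMSO and 17.5, 18.92 and 18.41 TPM under TVA (change 0.28, adjusted p = 0.0172, limma). Cd28, the co-stimulatory receptor opposed by CTLA-4, was at 121.4 ± 6.96 and 140.4 ± 3.72 TPM (SD, n = 3; change 0.21, adjusted p = 0.0445, limma). Ceacam1, a proposed partner of TIM-3, was at 0.64 ± 0.0265 and 1.16 ± 0.0656 TPM (change 0.40, adjusted p = 0.0252, limma). Since it reached 1 TPM only with TVA, it entered the test, and the count of 3, through the group in which it was high. When a mean of 10 TPM was required, which leaves Ceacam1 out, 2 genes of the list passed. The call of each of these 3 genes was lost without any 1 of the TVA libraries, where their adjusted p reached 0.0996 for Nt5e, 0.179 for Cd28 and 0.123 for Ceacam1, and those of Cd28 and Ceacam1 also without DMSO replicate 3. Cd28 also no longer passed with median-of-ratios scaling, quantile normalization or the GC correction. The PD-1 ligand gene Pdcd1lg2 (43.2 ± 3.98 and 46.0 ± 0.611 TPM), the CTLA-4 ligand gene Cd80 (32.5 ± 1.44 and 35.1 ± 0.921 TPM), and Tnfrsf14 (22.3 ± 1.15 and 23.1 ± 2.03 TPM, SD, n = 3) did not pass. Fgl1, a LAG-3 ligand gene, was listed at 0 in every library.

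Of 19 listed inhibitory receptors beyond the 10, 18 were in the table and 12 were tested. Of the 12, 1 passed as higher and 0 as lower (4 had an unadjusted p below 0.05, limma), a share near the 8.51% of all genes tested, and the median change was 0.04. The 1 that passed was Vsir, which encodes VISTA, at 70.7, 69.1 and 65.58 TPM under DMSO and 77.68, 78.97 and 76.82 TPM under TVA (change 0.18, adjusted p = 0.0377, limma). It no longer passed without DMSO replicate 3 or any 1 of the TVA libraries (adjusted p up to 0.171, limma). Without DMSO replicate 2, 2 of the 12 passed. Cd5, a restraint on antigen receptor signalling and the most abundant of the 12, was at 444.5 ± 22.5 TPM under DMSO and 422.2 ± 1.83 TPM under TVA (SD, n = 3; adjusted p = 0.29, limma).

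Signalling proteins that act downstream of these receptors were tested for 20 of 20 listed genes, with a median change of 0.05. As reported, 1 was higher and 1 lower, near the all-gene shares of 5.28% and 3.23%. The number passing was 4 without DMSO replicate 2 and 0 without any 1 of the TVA libraries. Dok2, an adaptor that damps Ras signalling, was at 43.02, 39.89 and 37.63 TPM under DMSO and 32.29, 31.63 and 33.62 TPM under TVA (change -0.30, adjusted p = 0.0241, limma). Pag1, the membrane adaptor that holds the kinase Csk, was at 10.4 ± 0.24 and 12.8 ± 0.591 TPM (SD, n = 3; change 0.27, adjusted p = 0.0244, limma). Both calls were lost without any 1 of the TVA libraries, with adjusted p up to 0.124 for Dok2 and 0.13 for Pag1, and that of Pag1 also without DMSO replicate 3. The phosphatase genes Ptpn6 (SHP-1; change -0.20, adjusted p = 0.0555, limma) and Ptpn11 (SHP-2; change 0.08, adjusted p = 0.28) did not pass. Proteins that move or shed the receptors, such as the proteases Adam10 and Adam17, which cleave LAG-3, were tested for 10 of 10 genes. None of the 10 passed and 1, Cmtm6, which stabilises PD-L1, had an unadjusted p below 0.05 (limma).

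Of 21 transcription factors tied to activation and exhaustion, 19 were tested. Of these, 2 were lower, against 3.23% of all genes tested, and 2 higher, against 5.28%. The median change was -0.03, and 8 had an unadjusted p below 0.05 (limma). The number passing was 7 without DMSO replicate 2 and 2 without any 1 of the TVA libraries. Id3, an inhibitor of E proteins that is linked to memory-like CD8+ T cells, fell from 156.4 ± 18.6 to 84.3 ± 1.68 TPM (SD, n = 3; change -0.88, adjusted p = 0.00239, limma). Eomes, a T-box factor of memory and exhausted cells, rose from 21.9 ± 1.52 to 32.5 ± 0.417 TPM (SD, n = 3; change 0.55, adjusted p = 0.00312, limma). Both kept their calls when any 1 library was left out. Batf, an AP-1 partner that the study also names, was at 69.3 ± 4.53 and 56.6 ± 2.95 TPM (change -0.29, adjusted p = 0.0325, limma). Nr4a3, induced by antigen receptor signals, was at 128.6 ± 4.3 and 145.3 ± 5.12 TPM (SD, n = 3; change 0.18, adjusted p = 0.0483, limma). The calls of Batf and Nr4a3 were lost without any 1 of the TVA libraries, with adjusted p up to 0.141 and 0.193, and that of Nr4a3 also without DMSO replicate 3 or with median-of-ratios scaling or quantile normalization. Tox, a main factor of the exhaustion programme, was at 11.3 ± 0.471 and 11.1 ± 0.333 TPM (change -0.03, adjusted p = 0.75, limma).

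Over the 6 libraries the transcripts with profiles most like that of Cd200, of 8935 genes averaging 5 TPM or more, were Slamf6 (Pearson r = 0.9992), Ifitm2 (0.9985) and Il2 (0.9962). Slamf6 encodes a receptor of progenitor exhausted cells, and Il2 the growth factor of activated T cells. Il2 went from 505.5 to 360.2 TPM (change -0.49, adjusted p = 7.23e-04, limma). The profiles most like that of Havcr2 were those of Rab34 (0.9971), Fam132a (0.9908) and Psmb3 (0.9907). Psmb3, a proteasome subunit gene, differed by only -0.05 on the log2 scale (adjusted p = 0.29, limma). For Lag3 they were Mbp (0.9977), Stat5a (0.9976) and Btbd19 (0.9963), and DMSO replicate 1 was the highest library for Lag3. With only 6 libraries, 77, 71 and 183 genes had an r above 0.95 with Cd200, Havcr2 and Lag3, and these correlations include the difference between the groups.

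On chromosome 16, Btla and Cd200 are neighbours, 129 kb apart with 0 protein-coding genes between them in RefSeq, and both were lower with TVA. Tigit, which did not pass, lies 1559 kb before Btla with 21 protein-coding genes between. Of 6 tested genes taken from both sides of the pair, looked up after their values were seen, 1 was lower and 1 higher. Over all genes tested these shares were 3.23% and 5.28%. Atg3, 35.17 kb before Btla, had a change of 0.09 (adjusted p = 0.37, limma) and Slc35a5 one of 0.11 (adjusted p = 0.20). Cd200r4, a CD200 receptor family gene 384.6 kb before Btla, was lower, at 3.28 ± 0.196 and 2.41 ± 0.175 TPM (SD, n = 3; change -0.33, adjusted p = 0.0359, limma). Cd200r1, which lies beyond Cd200r4 and is not among the 6, did not pass. It was at 1.09 ± 0.248 and 1.38 ± 0.108 TPM (SD, n = 3; change 0.20, adjusted p = 0.24, limma). On the other side, Abhd10, 320.7 kb after Cd200, had a change of 0.06 (adjusted p = 0.54, limma), and Plcxd2, 550.2 kb after it, was higher, at 19.56 ± 0.89 and 22.67 ± 0.558 TPM (SD, n = 3; change 0.20, adjusted p = 0.0442, limma). Cd96, 626.6 kb after it, had a change of 0.09 (adjusted p = 0.37, limma).

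**Figure D4:**
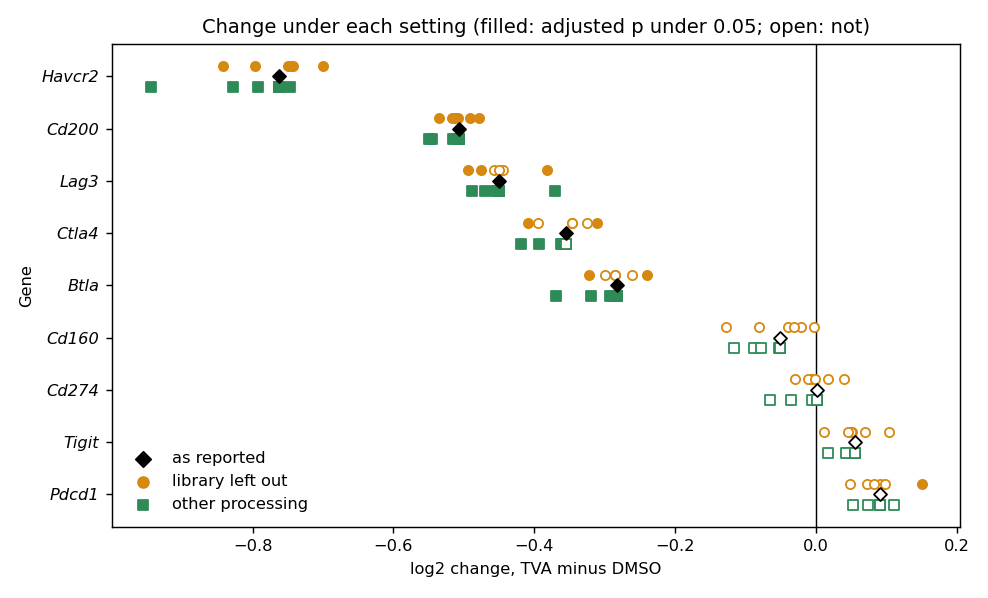
Fitted log2 change, TVA minus DMSO, of the 9 tested genes as reported (diamonds), with 1 library left out (circles) and under other processing (squares), where filled symbols have an adjusted p below 0.05. Havcr2 and Cd200 keep filled symbols throughout, Lag3, Ctla4 and Btla stay below 0 with some open symbols, and the only filled symbol above 0 is Pdcd1 without DMSO replicate 2.

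Across all tested genes the change ran against the GC content of the transcript (Spearman -0.40 across genes, which are not independent replicates). Among the 10 genes GC ranged from 41.8% for Btla to 58.0% for Lag3, and with a loess correction for GC the same 5 passed, with changes of -0.83 for Havcr2, -0.55 for Cd200, -0.42 for Ctla4, and -0.37 for both Lag3 and Btla.

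Defining markers of the labelled cell type were high, with 6 CD8+ T cell genes summing to 1841.6 to 1995.0 TPM under DMSO and 2093.8 to 2122.8 TPM under TVA, of which 1, Cd3g, passed as higher. Markers of other cells were low: the 4 CD4+ and regulatory T cell genes summed to 13.36 to 15.22 and 11.68 to 13.07 TPM with 0 calls and Foxp3 under 1 TPM. The 8 myeloid and dendritic cell genes summed to 40.96 to 43.51 TPM under DMSO and 51.8 to 54.09 TPM under TVA, where Lyz2 passed as higher and Adgre1, Flt3 and Xcr1 were under 1 TPM. The 4 NK cell genes summed to 2.35 to 3.05 and 2.7 to 3.43 TPM, and the 3 red cell genes to 15.91 to 28.87 and 9.1 to 23.26 TPM with Hbb-bt lower. The 8 activation genes summed to 1763.1 to 1856.9 TPM under DMSO and 1801.8 to 1863.1 TPM under TVA. Of these, Tnfrsf9 was higher and Tnfrsf4 lower, and 4 had an unadjusted p below 0.05 (limma). Over all genes tested, 5.28% passed as higher and 3.23% as lower. The part of these marker genes in the differences of Cd200, Havcr2, Lag3, Ctla4 and Btla was not tested.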

How the data were processed

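Bulk RNA-seq was made from 6 libraries of CD8+ T cells, 3 with DMSO and 3 with TVA, grouped by the labels. The authors deposited 1 table of TPM values per gene, with a common total for every library. The submitters' processing notes name STAR, RSEM and mm10. The annotation and the strand setting are not given in the sources used here, and the depth is unknown. Genes of at least 1 TPM in at least 3 libraries were fitted as log2(TPM + 1) with limma 3.58.1 in R 4.3.3 (trended variance, Benjamini-Hochberg adjustment, threshold 0.05), after a test on simulated data. A fold change on this scale understates the change of low genes. No gene length or read count entered the fit, so RSEM's division of reads between similar genes cannot be checked. GC content came from GENCODE vM21 (99.4% of tested genes), and positions, neighbours and promoters from RefSeq GRCm38.p6. Named were all 10 genes, every listed gene past the threshold, the genes of the ratios, and 3 most similar profiles for each of 3 genes past it, and other genes were named after their values were seen. The members and lists were chosen with earlier results of these data known. Other settings were a pseudocount of 0.1, other filters, median-of-ratios and quantile scaling, a GC correction, no variance trend, a replicate block, and leaving out each library. 1 of the marker lists is not reported here.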

Additional observations from a re-analysis of the deposited data

How the results depend on the processing

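Of 125 values of the 9 tested genes under other settings, 105 kept direction and call, 12 kept the direction but no longer passed, 1 newly passed (Pdcd1 without DMSO replicate 2) and 7 changed sign, all for Cd274. Other settings were followed for 30 genes in all, these 9 among them. Further genes named here, such as Cd5, Tox, Cd200r4 and the cell markers, were not followed. Over the 30 genes, 330 of 416 values kept direction and call, 76 no longer passed, 2 newly passed and 8 changed sign. The change of Cd274 was -0.0657 with the GC correction, -0.0365 with median-of-ratios scaling and -0.0065 with quantile normalization, and ranged from -0.0303 to 0.0399 when 1 library was left out. That of Tnfrsf14 ranged from -0.00277 to 0.1175 in the same way. The number of the 9 genes that passed, 5 as reported, was 2 to 6 with 1 library left out. The genes passing over the whole table, 925 as reported, numbered 494 when only a value above 0 was required, 608 when a mean of 10 TPM was required, and 102 to 2242 with 1 library left out. The genes passing in the 5 lists, 10 as reported, numbered 5 when only a value above 0 was required and 2 to 20 with 1 library left out. Deviations of same-numbered libraries from their group means had an r of 0.157, 0.035 and -0.077. With so few libraries in a group, these values cannot show whether same-numbered libraries were paired. With a replicate block 218 genes passed over the table, 2 in the lists and 4 of the 9, the exception being Ctla4 (adjusted p = 0.0556, limma). The 4 ratios kept direction with 1 added to each level and when any 1 library was left out. A replicate block cannot change their group difference, and no GC correction was run for them. The causes of the shifts between settings were not tested. Leaving out 1 library also leaves 2 in its group. TPM hides depth, so how far counting error limits low genes such as Entpd1 cannot be given.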
